A study of Danio rerio with 11 samples.

Results

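Voltage-gated calcium and sodium channel genes were followed in intraspinal serotonergic neurons (ISNs) of zebrafish, which make serotonin locally in the spinal cord. The members are all genes of the deposited table whose symbol begins with cacna1, cacna2d, cacnb or cacng, or with scn and a digit, in either letter case. This rule gave 64 gene IDs of the 39714 in the table, 50 of calcium channel subunits and 14 of sodium channel subunits. The ISNs came from Tg(tph2:GFP) fish, in which a green fluorescent protein driven by the promoter of the serotonin synthesis gene tph2 marks the cells, and in every fish the cord had been cut through. At 6 to 8 weeks after the injury, tissue of the injury area and of distal segments was taken from the same fish, and GFP-positive cells were isolated by fluorescence-activated sorting and sequenced in bulk from low-input RNA. There were 6 libraries of ISNs from the injury segment and 5 of ISNs from the distal segments, with no uninjured fish, so both groups share the line, the transection and the time. The labels give neither the age of the fish nor whether a library pools several fish. For its experiments as a whole, the study's methods state fish of both sexes aged 6 to 8 weeks. Nor do the labels say that replicates are separate animals. The p-values below therefore measure only the spread between these libraries, which may be technical.

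A voltage-gated calcium channel is built around a pore-forming alpha1 subunit, which sets the type of current. L-type channels open at strong depolarization and stay open for long, N-, P/Q- and R-type channels sit mostly at presynaptic terminals where they trigger transmitter release, and T-type channels open near the resting potential and feed bursting and pacemaking. Alpha2delta and beta subunits carry the pore to the membrane and tune its gating, while most gamma subunits are better known as escorts of AMPA-type glutamate receptors. Sodium channels carry the upstroke of the action potential through a single large alpha subunit, with small beta subunits that modulate gating and act as adhesion molecules. The study recorded firing and calcium oscillations of ISNs, and the comparison asks which of these subunits ISNs express and whether their levels differed between the injury segment and the distal segments.

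Expression is given as FPKM, the fragments of a gene per kilobase of its length and per 1000000 mapped fragments, so levels of different genes can be set side by side. The libraries held 14215980 to 19709661 fragments, and 1 fragment of a 1 kb gene was worth 0.0507 to 0.0703 FPKM. An FPKM of 0 stood for 0 fragments, and for a zero the counting limit of 3 fragments is given where it matters. Such limits cover counting error only, because amplified copies are not independent molecules. Serotonergic genes were high in both groups. The TPH2 gene had 1590 to 5396 FPKM in injury libraries and 1462 to 6042 FPKM in distal ones, and 9 of the 13 IDs on a serotonergic list were above 0 in all 11 libraries. The summed level of that list was 6824 to 10866 FPKM in injury libraries and 4641 to 12292 FPKM in distal libraries. Muscle genes, which would bring their own channels, summed to 0 to 28.8 FPKM in injury libraries and 3.79 to 34.8 FPKM in distal ones. Oligodendrocyte genes summed to 0 to 758 FPKM in injury libraries and 163 to 709 FPKM in distal libraries, with medians of 51.1 FPKM at the injury and 466 FPKM in distal libraries. Of the 12 oligodendrocyte IDs, 10 were tested and 1 was lower at the injury at an unadjusted limma p under 0.05, olig1 was listed at 0 in all 11 libraries, and sox10 and olig2 did not pass 2.96 FPKM. The 1 was mbpa, a myelin gene, with 0.590, 8.82, 0, 37.0, 35.1 and 234 FPKM in injury replicates 1 to 6, against 530, 531, 299, 237 and 129 FPKM in distal replicates 1 to 5 (difference -4.54 ± 1.04, SE, n = 6 and 5; limma p 0.000171; limma adjusted p 0.838). The part of these cells in the channel values was not tested.

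Libraries differed in how many genes they detected much more than in depth. Injury replicates 2 and 3 and distal replicate 2 had 5443, 4530 and 8448 genes at 1 FPKM or more, against 8808 to 16019 in the other 8 libraries. In those 3 libraries 28.0%, 52.0% and 21.3% of 150 housekeeping IDs were listed at 0, against 5.33% to 14.0% in the other 8. Injury replicates 2 and 3 also had the fewest channel genes, while distal replicate 2 had as many as distal replicate 4. The injury replicates 1 to 6 had 40, 18, 10, 28, 46 and 46 channel genes above 0, and distal replicates 1 to 5 had 30, 24, 36, 24 and 39. A channel gene listed at 0 in injury replicate 2 or 3 or in distal replicate 2 therefore stands beside many common genes at 0 in the same library, and for the genes most touched by such zeros the difference is also given without these 3 libraries.

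**Figure D1:**
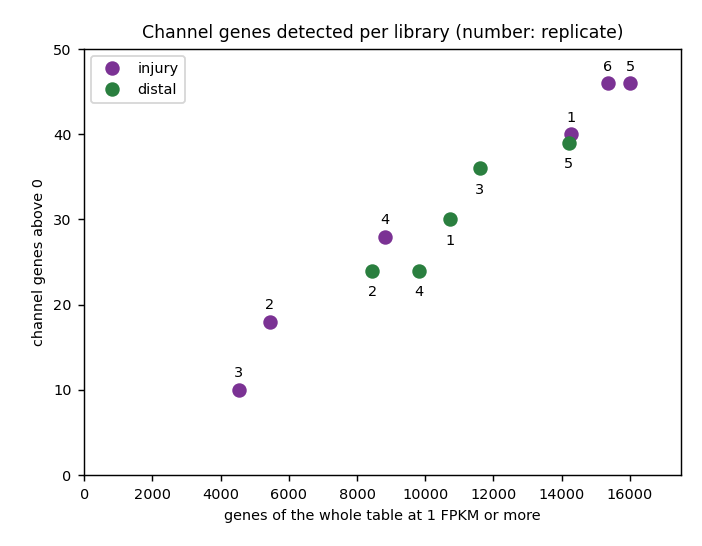
Number of channel genes above 0 (vertical axis) against the number of genes of the whole table at 1 FPKM or more (horizontal axis) in the 6 injury libraries and the 5 distal libraries, each point 1 library with its replicate number. Injury replicates 3 and 2 are lowest on both axes, with 10 and 18 channel genes, and injury replicates 5 and 6 are highest, with 46 each.

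Of the 64 channel genes, 58 were above 0 in at least 1 library and 44 reached 1 FPKM in at least 1 library. Only SCN2B, one copy of SCN8A and one copy of CACNA1B were above 0 in all 11 libraries. The reference of gene names writes many zebrafish genes in the form used for mammals and gives some pairs of IDs the same symbol, so copies are told apart here by their Ensembl ID. The 6 members listed at 0 throughout were cacna1fa, cacna2d4a, CACNG1 (ENSDARG00000052360), cacng3a, cacng4a and cacng6a. The pore genes CACNA1S, scn4aa and scn4ab and the gamma gene CACNG1 of skeletal muscle channels did not pass 0.908 FPKM in any library. CACNB1, the beta subunit of muscle that neurons also express, reached 51.9 FPKM and is described below.

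**Figure D2:**
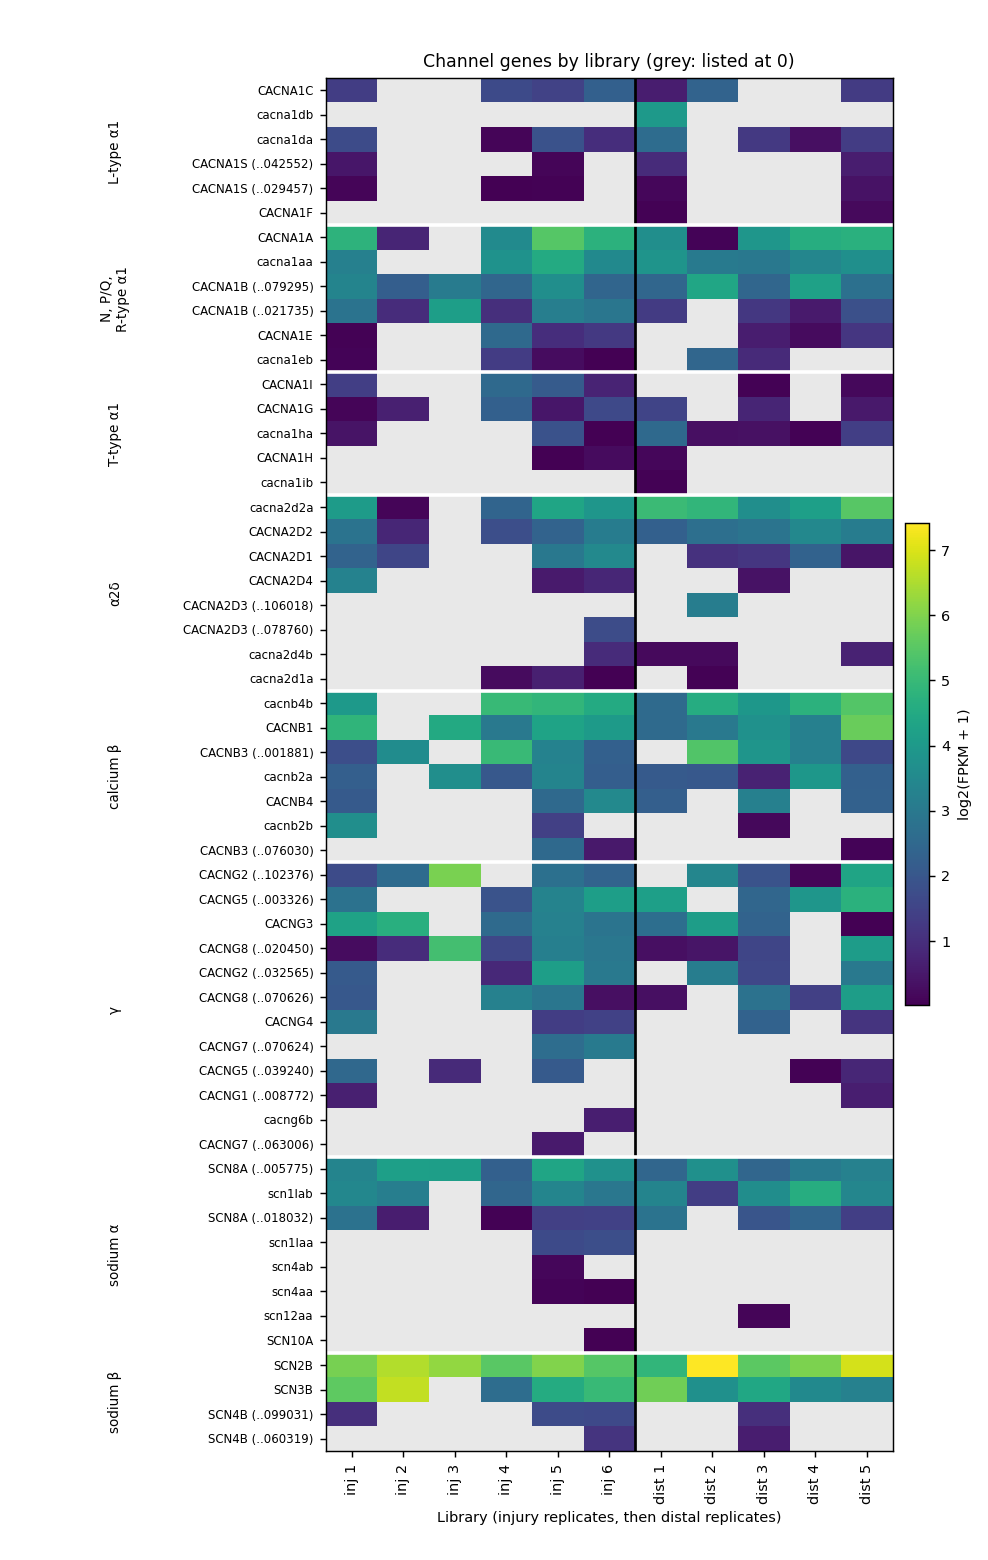
Heat map of log2(FPKM + 1) for 56 of the 58 channel genes above 0, in rows by subunit class and, within a class, by falling mean, and for the 6 injury libraries to the left of the line and the 5 distal libraries to its right. Grey cells are listed at 0, and digits in brackets are the end of the Ensembl ID where a symbol has more than 1 ID. SCN2B, SCN8A (ENSDARG00000005775) and CACNA1B (ENSDARG00000079295) have colour in all 11 columns.

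P/Q- and N-type genes made up most of the calcium channel alpha1 message. The 18 alpha1 IDs summed to 5.95 to 97.1 FPKM in injury libraries (median 51.5) and 30.3 to 59.7 FPKM in distal libraries (median 52.5). P/Q-type genes held a median of 56.3% of this sum in the injury libraries and 63.9% in the distal libraries. N-type genes held 23.6% in the injury libraries and 19.0% in the distal libraries, also as medians. Medians for L-type genes were 4.85% in the injury libraries and 7.42% in the distal libraries, for T-type genes 5.94% in the injury libraries and 3.38% in the distal libraries, and for R-type genes 0.692% in the injury libraries and 2.38% in the distal ones. P/Q type was the leading type in 8 of 11 libraries. N type led in the other 3, which were injury replicates 2 and 3 and distal replicate 2, the same 3 libraries that detected the fewest genes.

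**Figure D3:**
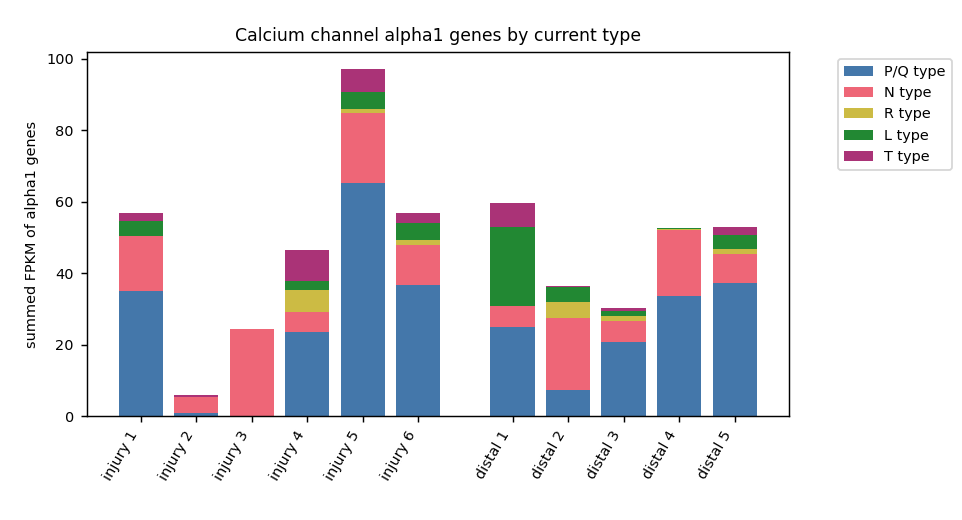
Summed FPKM of calcium channel alpha1 genes per library, stacked by current type, with the 6 injury libraries on the left and the 5 distal libraries on the right. P/Q-type genes form the largest part of 8 bars, and N-type genes that of injury replicates 2 and 3 and distal replicate 2.

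The P/Q-type pore is encoded here by CACNA1A (ENSDARG00000006923) and cacna1aa (ENSDARG00000037905), whose protein couples action potentials to vesicle release at fast synapses. CACNA1A had the highest mean of all alpha1 genes, with 26.7, 0.732, 0, 10.8, 43.2 and 26.4 FPKM in injury replicates 1 to 6, against 11.7, 0.0585, 14.0, 23.8 and 25.3 FPKM in distal replicates 1 to 5. The groups overlapped over most of their range, and the 3 libraries under 1 FPKM were again injury replicates 2 and 3 and distal replicate 2. The difference in log2(FPKM + 1), injury minus distal, was -0.17 ± 1.1 (SE, n = 6 and 5; limma p 0.878), and it turned to 0.42 without those 3 libraries. The paralog cacna1aa had 0 to 22.1 FPKM in injury libraries, with injury replicates 2 and 3 at 0, and 6.83 to 13.3 FPKM in distal libraries. Its difference was -0.89 ± 0.98 (SE, n = 6 and 5), and 0.29 (limma p 0.674) without the 3 libraries. CACNA1A was the higher of the pair in 7 libraries and cacna1aa in 3.

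The N-type pore, the target of omega-conotoxins and of presynaptic inhibition by G proteins, has a pair of IDs under the symbol CACNA1B. The first, ENSDARG00000079295, was the only alpha1 gene above 0 in every library. It had 9.24, 3.71, 7.47, 4.48, 11.6 and 4.38 FPKM in injury replicates 1 to 6, against 4.45, 20.1, 4.43, 18.0 and 5.75 FPKM in distal replicates 1 to 5, and distal replicates 2 and 4 were the highest while the other 3 lay within the injury range. The second, ENSDARG00000021735, had 6.08, 0.921, 16.9, 1.00, 8.05 and 6.60 FPKM in injury replicates 1 to 6, against 1.48, 0, 1.32, 0.460 and 2.50 FPKM in distal replicates 1 to 5. Injury replicates 1, 3, 5 and 6 lay above all distal libraries, while injury replicates 2 and 4 fell within the distal range. The difference was 1.53 ± 0.91 (SE, n = 6 and 5), a limma p of 0.104, a limma adjusted p of 0.838 and an exact two-sided permutation p of 0.0433. An exact p under 0.05 was found for 2.44% of the 24178 genes tested, 0.753% higher at the injury and 1.69% lower, and for 2 of the 47 channel genes tested, 1 in each direction. Without the 3 libraries of few genes the difference was 1.26 (limma p 0.173). The first CACNA1B exceeded the second in 9 of 11 libraries, the exceptions being injury replicates 3 and 6.

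R-type genes, whose channels resist the classical blockers of the other types, were lower and scattered. CACNA1E had 0 to 4.79 FPKM in injury libraries and 0 to 1.26 FPKM in distal libraries, above 0 in 4 and 3 of them. Its relative cacna1eb reached 1.52 FPKM in injury replicate 4 and 4.50 FPKM in distal replicate 2. Limma p-values were 0.493 for CACNA1E and 0.440 for cacna1eb.

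L-type genes stayed low. CACNA1C, the L-type pore of heart and brain, had the highest mean of the class among 7 IDs, with 1.54, 0, 0, 2.20, 1.77 and 3.83 FPKM in injury replicates 1 to 6, against 0.527, 4.19, 0, 0 and 1.45 FPKM in distal replicates 1 to 5. The groups overlapped (difference 0.27 ± 0.77, SE, n = 6 and 5; limma p 0.728). The L-type pore that opens at more negative potentials and paces many neurons is represented by cacna1da and cacna1db. Values of cacna1da ran between 0 and 2.70 FPKM in injury libraries and between 0 and 5.21 FPKM in distal libraries, with a limma p of 0.664. Distal replicate 1 alone carried cacna1db, at 15.1 FPKM, and this gene raised the L-type share of that library to 36.7% of the alpha1 sum. The value was recovered as 118 fragments on a length of 401 bp, which could not be checked from a single library. In the same library cacna1da had 657 fragments at 5.21 FPKM. The retinal L-type gene CACNA1F did not pass 0.149 FPKM.

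T-type genes were seen at low levels and unevenly. CACNA1I (ENSDARG00000070522), which carries the slowest of the T-type currents in mammals, had 1.59, 0, 0, 4.87, 3.39 and 0.678 FPKM in injury replicates 1 to 6, against 0, 0, 0.0381, 0 and 0.133 FPKM in distal replicates 1 to 5. These values stand for 212, 0, 0, 590, 344 and 82 fragments in the injury libraries and for 0, 0, 5, 0 and 17 fragments in the distal ones. All 4 injury libraries that contained the gene lay above all 5 distal libraries, and the 2 that did not were injury replicates 2 and 3. A count of 0 allowed up to 0.0285 FPKM in distal libraries and up to 0.0257 FPKM in injury replicates 2 and 3. The difference was 1.09 ± 0.58 (SE, n = 6 and 5; limma p 0.0734; limma adjusted p 0.838; exact two-sided permutation p 0.0736). It did not pass an unadjusted p of 0.05. It did so in 6 of the alternative fits, with limma p 0.0431 without injury replicate 2, 0.0435 without injury replicate 3, and 0.0329 without these and distal replicate 2. In all 6 the limma adjusted p was 0.757 or more. The study displayed this gene, under the name cacna1ia, as one of those that differed. Calls of the study were made with DESeq at an unadjusted p under 0.05, a test other than those used here. The gene was chosen on these libraries, so its values are not independent evidence of a direction. The name was matched by exclusion, because cacna1ib has an ID of its own, which was seen in distal replicate 1 alone at 0.0424 FPKM. Apart from RNA, the study reported that mibefradil, a T-type channel blocker, largely blocked calcium oscillations in varicosities of ISNs of the injury segment.

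The remaining T-type genes were also low. CACNA1G had 0 to 3.82 FPKM in injury libraries and 0 to 1.91 FPKM in distal libraries (limma p 0.651). Another, cacna1ha, was above 0 in all 5 distal libraries and in 3 of 6 injury libraries, with at most 2.68 FPKM in injury libraries and at most 4.82 FPKM in distal ones (limma p 0.368). CACNA1H did not pass 0.168 FPKM.

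Alpha2delta subunits raise the number of channels at the presynaptic membrane, and some of them bind gabapentin. Among 9 IDs, cacna2d2a (ENSDARG00000103390) held 63.5% of the summed FPKM of the class over the 11 libraries, and it was the member with the lowest limma p of all channel genes. It had 15.7, 0.0913, 0, 4.27, 19.7 and 13.9 FPKM in injury replicates 1 to 6, against 32.5, 28.7, 11.6, 17.4 and 43.9 FPKM in distal replicates 1 to 5. Injury replicates 2, 3 and 4 lay below all distal libraries, and the other 3 overlapped the lower distal values of replicates 3 and 4. The difference was -2.19 ± 0.98 (SE, n = 6 and 5; limma p 0.0335; exact two-sided permutation p 0.0455), and its limma adjusted p was 0.838. It was the only one of the 47 channel genes tested with a limma p under 0.05, where 2.68% of all 24178 genes tested had one, 0.658% higher at the injury and 2.03% lower.

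This value of cacna2d2a depended on single libraries. The difference was -0.92 (limma p 0.194) without injury replicates 2 and 3 and distal replicate 2. Leaving out 1 library at a time gave -2.56 to -1.69. The limma p was 0.0727 without injury replicate 2, 0.0621 without injury replicate 3, and 0.0639, 0.0533 and 0.0794 without distal replicates 1, 2 and 5. It was 0.0544 with quantile normalization, 0.0554 with array weights and 0.0616 with a pseudocount of 0.01. In the other 15 of the 24 alternatives it stayed under 0.05, among them 0.0192 without injury replicate 5, 0.0232 without injury replicate 1 and 0.021 with the replicate number as a block. The difference kept its sign in all 24. With the number of genes detected per library as a covariate it was -2.11 ± 0.70 (SE; limma p 0.00767; limma adjusted p 0.757). The myelin gene mbpa was also lower at the injury, as given above, and its part in the value of cacna2d2a was not tested.

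Of the other alpha2delta genes, CACNA2D2 (ENSDARG00000078169) had the next highest mean. It had 6.14, 0.739, 0, 2.48, 4.19 and 7.65 FPKM in injury replicates 1 to 6, against 3.87, 5.54, 6.27, 10.1 and 7.68 FPKM in distal replicates 1 to 5, a difference of -1.07 ± 0.90 (SE, n = 6 and 5; exact two-sided permutation p 0.104), which was -0.40 (limma p 0.602) without the 3 libraries of few genes. It was described because it shares its name with cacna2d2a, after its values were seen. The 2 genes are both lowest in injury replicates 2 and 3, and cacna2d2a exceeded CACNA2D2 in 9 of 11 libraries. CACNA2D1, the classical gabapentin receptor of sensory neurons, had 0 to 10.3 FPKM in injury libraries and 0 to 4.06 FPKM in distal libraries (limma p 0.434). CACNA2D4, a gene of photoreceptor synapses, had 8.80 FPKM in injury replicate 1 and under 1 FPKM in every other library. The pair of CACNA2D3 IDs appeared in 1 library each, one at 2.30 FPKM in injury replicate 6 and the other at 7.80 FPKM in distal replicate 2.

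Beta subunits bind the alpha1 subunit inside the cell and protect it from degradation. All 7 beta IDs were above 0 in some library, and 6 of them had a mean of at least 1 FPKM. The highest mean belonged to cacnb4b (ENSDARG00000062174), with 15.0, 0, 0, 30.8, 28.6 and 22.3 FPKM in injury replicates 1 to 6, against 4.92, 22.9, 14.3, 26.3 and 42.4 FPKM in distal replicates 1 to 5. Apart from the zeros of injury replicates 2 and 3 the injury values lay inside the distal range. The difference of -1.19 ± 1.05 (SE, n = 6 and 5; limma p 0.268) became 0.43 without these libraries and distal replicate 2. CACNB1, the beta subunit of muscle that neurons also express, had 0 to 27.9 FPKM in injury libraries and 4.94 to 51.9 FPKM in distal libraries, and it was at 21.5 FPKM in injury replicate 3, where cacnb4b was at 0. Similar ranges were found for CACNB3 (ENSDARG00000001881), with 0 to 31.5 FPKM in injury libraries and 0 to 41.2 FPKM in distal ones, and for cacnb2a, with 0 to 11.8 FPKM in injury libraries and 0.656 to 14.2 FPKM in distal ones. CACNB4 had 0 to 10.3 FPKM in injury libraries and 0 to 8.41 FPKM in distal libraries. Limma p-values of the 7 beta genes lay between 0.166 and 0.973.

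Which beta subunit was highest changed between libraries, while the copies of a pair kept an order. In 9 of 11 libraries cacnb4b exceeded CACNB4, with both at 0 in the other 2. The CACNB3 copy named above exceeded its second ID (ENSDARG00000076030) in 9 libraries and was matched by it, at 0, in 2. The order cacnb2a above cacnb2b held in 9 libraries, was turned round in injury replicate 1, where cacnb2b had 11.6 FPKM, and could not be read in injury replicate 2, where both were at 0.

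Gamma subunits form the largest class, with 16 IDs, 12 of them above 0. The members known as AMPA receptor escorts, CACNG2, CACNG3, CACNG4, CACNG5, CACNG7 and CACNG8, held the highest levels. CACNG2 (ENSDARG00000102376), known as stargazin, had 2.27, 5.01, 59.6, 0, 5.76 and 4.16 FPKM in injury replicates 1 to 6, against 0, 9.67, 2.74, 0.0926 and 19.0 FPKM in distal replicates 1 to 5. Injury replicate 3 stood above all other libraries, and the remaining values overlapped. The difference was 0.60 ± 1.07 (SE, n = 6 and 5; limma p 0.579), and -0.07 without injury replicate 3. The same library also held the highest level of CACNG8 (ENSDARG00000020450), 35.4 FPKM, where the other injury libraries had 0.190 to 8.31 FPKM and the distal libraries 0 to 16.2 FPKM. The second ID of each symbol was at 0 in injury replicate 3. CACNG2 (ENSDARG00000032565) had 0 to 16.8 FPKM in injury libraries and 0 to 7.81 FPKM in distal libraries (limma p 0.890). CACNG8 (ENSDARG00000070626) had 0 to 8.55 FPKM in injury libraries and 0 to 16.5 FPKM in distal libraries (limma p 0.761). CACNG4 had 0 to 7.08 FPKM in injury libraries and 0 to 4.04 FPKM in distal libraries (limma p 0.710).

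CACNG3 (ENSDARG00000076401) was singled out after its values were seen. It had 18.3, 24.8, 0, 4.88, 8.55 and 6.28 FPKM in injury replicates 1 to 6, against 5.41, 16.5, 4.19, 0 and 0.0258 FPKM in distal replicates 1 to 5. For this gene the difference was 1.09 ± 1.03 (SE, n = 6 and 5; limma p 0.296), and 1.96 (limma p 0.0434; limma adjusted p 0.797) without the 3 libraries of few genes. CACNG5 (ENSDARG00000003326) had a difference in the other direction, with 0 to 16.7 FPKM in injury libraries and 0 to 25.7 FPKM in distal libraries (limma p 0.334). Among the CACNG7 copies, ENSDARG00000070624 had 5.27 and 7.17 FPKM (125 and 203 fragments) in injury replicates 5 and 6 and was listed at 0 in the other 9 libraries (exact two-sided permutation p 0.455). The study displayed a cacng7b as differing, and which of the CACNG7 IDs it meant could not be settled from the names.

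Among sodium channel alpha genes, SCN8A (ENSDARG00000005775) had the highest mean and was the only one above 0 in all 11 libraries. Its channel drives high-frequency and resurgent firing at the axon initial segment and nodes. Injury replicates 1 to 6 had 9.15, 17.2, 16.8, 3.89, 19.7 and 12.4 FPKM, against 4.51, 12.3, 4.43, 7.28 and 8.58 FPKM in distal replicates 1 to 5. The means were 13.2 ± 5.91 FPKM in injury libraries and 7.42 ± 3.26 FPKM in distal libraries (SD, n = 6 and 5). Injury replicate 4 was the lowest of all, 4 injury libraries lay above the highest distal value, and the difference in log2(FPKM + 1) was 0.69 ± 0.85 (SE; limma p 0.421; exact two-sided permutation p 0.130). It was above 0 in all alternatives, between 0.55 and 1.17, with limma p-values of 0.118 to 0.609. The other SCN8A ID (ENSDARG00000018032) had 0 to 6.00 FPKM in injury libraries and 0 to 6.12 FPKM in distal libraries, and it was the lower copy in 10 of 11 libraries.

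The next sodium alpha gene by mean level was scn1lab (ENSDARG00000062744), a relative of the mammalian SCN1A group whose loss causes seizures in zebrafish larvae. It had 9.83, 8.11, 0, 4.53, 9.50 and 6.63 FPKM in injury replicates 1 to 6, against 9.20, 1.56, 11.5, 23.7 and 9.66 FPKM in distal replicates 1 to 5. The ranges overlapped, with the highest value in distal replicate 4 (limma p 0.456). Its paralog scn1laa (ENSDARG00000086819), displayed by the study as differing, had 2.21 and 2.43 FPKM (93 and 122 fragments) in injury replicates 5 and 6 and was listed at 0 in 9 libraries, where a count of 0 allowed up to 0.0686 FPKM. Its exact two-sided permutation p was 0.455, and with values in 2 libraries of the same group the smallest p that any split could give was 0.182. Injury replicates 5 and 6, which also held the CACNG7 copy above, are those with the most genes detected. They stood apart in some markers of other cells, but not in all. The neuropeptide gene urp1 of cerebrospinal fluid-contacting neurons had 213 and 537 FPKM there and at most 4.03 FPKM elsewhere. For urp2 the values were 19.5 and 141 FPKM there and 0 elsewhere. TAL1 was also seen in these libraries alone, at 0.160 FPKM in injury replicate 5 and 5.60 FPKM in injury replicate 6. The remaining members of that list did not set both libraries apart. PKD2L1 had 0.595 and 32.7 FPKM there and up to 5.71 FPKM elsewhere, in distal replicate 1. MYO3B had 1.45 and 2.97 FPKM there and 9.40 FPKM in distal replicate 4. The 10 IDs of that list, 9 of them above 0, summed to 131 to 866 FPKM in injury libraries and 138 to 602 FPKM in distal libraries, with NPY at 0 throughout. These sums include GATA2, which is also on the serotonergic list. GATA2 alone had 131 to 603 FPKM in injury libraries and 128 to 602 FPKM in distal libraries. The glial gene GFAP was at 33.1 and 31.1 FPKM in injury replicates 5 and 6 and at most 3.89 FPKM elsewhere. The glial list of 13 IDs, 11 above 0, summed to 120 to 588 FPKM in injury libraries and 65.4 to 805 FPKM in distal ones. In it 2 glutamate transporter IDs were at 0 throughout, but another, SLC1A2 (ENSDARG00000102453), was highest in injury replicates 5 and 6. Its level was 26.9 FPKM in replicate 5 and 54.4 FPKM in replicate 6, with a maximum of 5.03 FPKM outside them. FABP7 (ENSDARG00000007697) reached 162 FPKM in replicate 5 and 213 FPKM in replicate 6, where no other library passed 47.7 FPKM. The her4.1 gene had 1.31 FPKM in replicate 5 and 1.04 FPKM in replicate 6 and was at 0 elsewhere. SOX2 and S100B did not set both apart, with 11.1 FPKM of SOX2 and 42.1 FPKM of S100B in injury replicate 2. GLUL (ENSDARG00000099776) alone had 81.8 to 303 FPKM in injury libraries and 11.9 to 544 FPKM in distal ones. The part of these cells in the values of scn1laa and CACNG7 was not tested. The level of scn1lab was above that of scn1laa in 10 libraries, with both at 0 in injury replicate 3. The remaining alpha genes, SCN10A, scn12aa, scn4aa and scn4ab, did not pass 0.103 FPKM.

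Of all channel genes, the sodium channel beta genes SCN2B and SCN3B had the highest means over the 11 libraries, 72.9 and 28.9 FPKM. SCN2B (ENSDARG00000101713), which is linked to the alpha subunit by a disulfide bond and promotes its surface expression, had 59.0, 93.6, 72.7, 44.9, 63.0 and 42.7 FPKM in injury replicates 1 to 6, against 28.5, 169, 45.5, 61.0 and 122 FPKM in distal replicates 1 to 5. Its means were 62.7 ± 18.9 FPKM in injury libraries and 85.1 ± 58.5 FPKM in distal libraries (SD, n = 6 and 5). All injury values lay inside the distal range, and the difference in log2(FPKM + 1) was -0.20 ± 0.69 (SE; limma p 0.769), turning to 0.11 without distal replicate 2. SCN3B, the beta subunit of developing and injured sensory neurons in mammals, had 46.4, 106, 0, 5.25, 22.8 and 30.9 FPKM in injury replicates 1 to 6, against 55.0, 12.3, 20.5, 10.5 and 8.57 FPKM in distal replicates 1 to 5 (limma p 0.952). SCN4B was low at both of its IDs, with at most 2.24 FPKM in injury libraries and 1.02 FPKM in distal libraries.

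**Figure D4:**
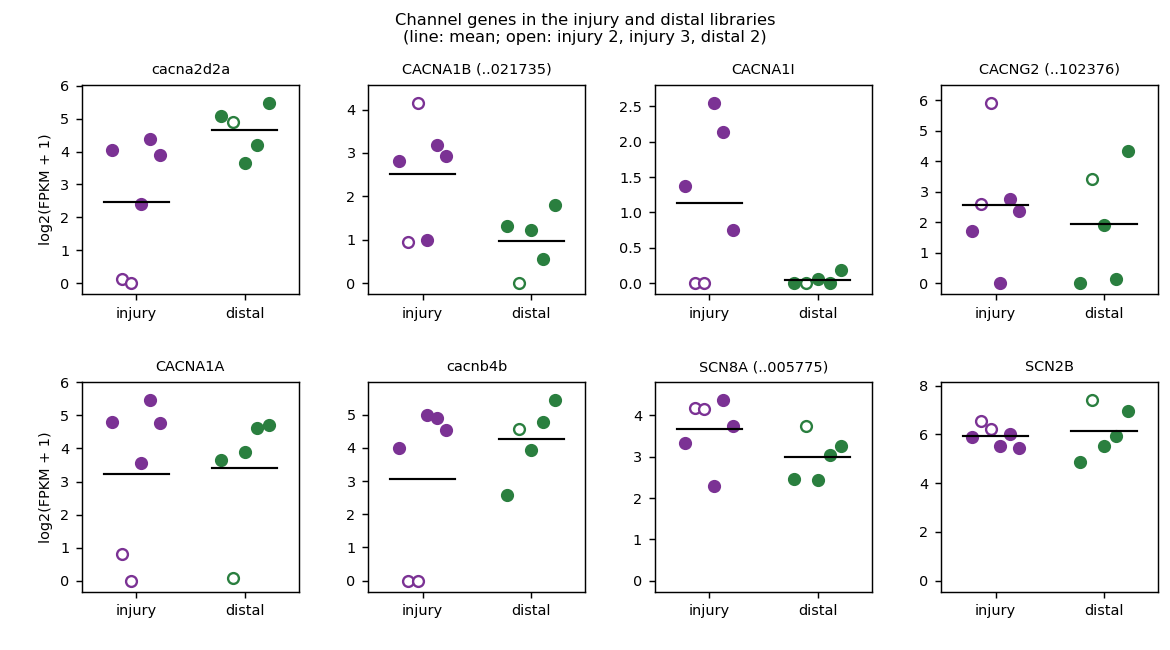
Level as log2(FPKM + 1) of 8 channel genes in the injury libraries (left of each panel) and the distal libraries (right), each point 1 library and each line the mean, with open points for injury replicates 2 and 3 and distal replicate 2. For cacna2d2a the lowest points are the open ones of the injury group, while SCN2B is at 28.5 FPKM or more in all 11 libraries.

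Over the whole set, differences of both signs were about equally common. Of the 47 with a mean of at least 0.1 FPKM, which were tested, 24 had a positive difference, against 48.2% of all genes tested. The median difference was 0.03 among channel genes and -0.04 among all genes. None of the 47 had groups that did not overlap, where 0.0662% of all genes were wholly higher at the injury and 0.186% wholly lower. By class, the median difference was -0.27 for 4 L-type genes, -0.28 for 6 genes of N, P/Q and R type, 0.29 for 3 T-type genes, -0.08 for 7 alpha2delta genes, -0.15 for 7 beta genes, 0.44 for 10 gamma genes, -0.04 for 4 sodium alpha genes and 0.30 for 6 sodium beta genes. No channel gene had a limma adjusted p under 0.05, and no gene of the whole table did (0 of 24178, a percentage of 0, with 649 at an unadjusted limma p under 0.05 and 3 by limma voom on the recovered fragments). The limma adjusted p of the channel genes lay between 0.838 and 0.995. In bulk samples fewer cells that express a gene and less RNA per cell cannot be told apart.

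**Figure D5:**
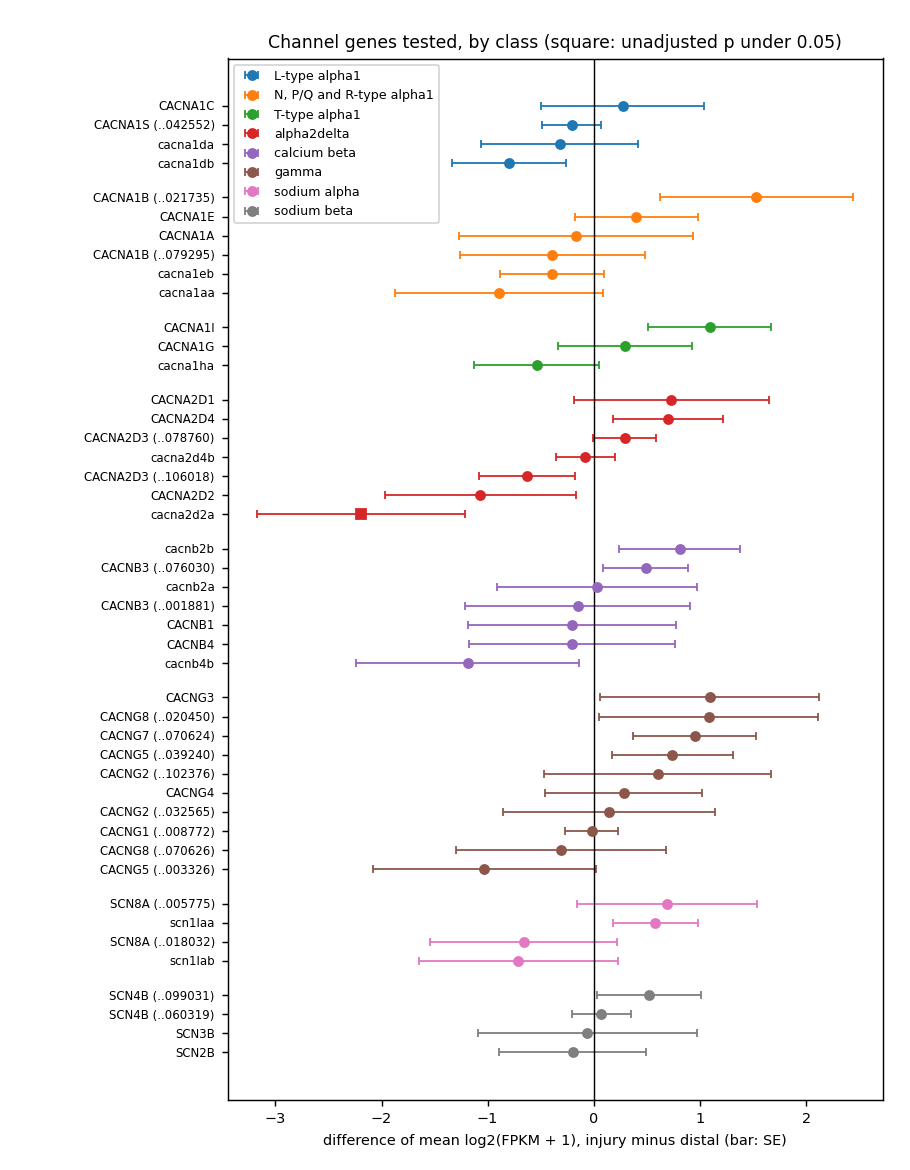
Difference of mean log2(FPKM + 1), injury minus distal (horizontal axis, bars are the SE of the limma fit), for 45 of the 47 channel genes tested, grouped by subunit class. Points lie on both sides of 0 in every class, 22 above it, and cacna2d2a (square), at -2.19, is the only one with an unadjusted limma p under 0.05.

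Channel genes seen in 1 group alone were counted next. Of the 58 above 0, 8 (13.8%) were above 0 in injury libraries only and 5 (8.62%) in distal libraries only, against 18.2% and 8.15% of the 29512 genes above 0 in the table. The 8 were SCN10A, both CACNG7 copies, cacng6b, CACNA2D3 (ENSDARG00000078760), scn4aa, scn1laa and scn4ab, and all of them were seen in injury replicate 5 or 6. The 5 were CACNA2D3 (ENSDARG00000106018), CACNA1F, scn12aa, cacna1ib and cacna1db. In all, 9 channel genes (15.5%) were seen in a single library, against 17.8% of the genes above 0 in the table.

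Proteins that anchor or regulate the channels were read out from 2 lists. Of the calcium channel partners, 35 of 39 IDs were tested, and 0 were higher and 1 was lower at the injury at an unadjusted limma p under 0.05, where 0.658% of all genes tested were higher and 2.03% lower. The highest levels were those of the calmodulin genes calm1b, calm3b and CALM2, whose protein is the calcium sensor of the channels. These had 451 to 715 FPKM, 375 to 664 FPKM and 157 to 459 FPKM in injury libraries, and 165 to 1050 FPKM, 126 to 852 FPKM and 174 to 443 FPKM in distal libraries. Their limma p-values were 0.573, 0.681 and 0.541.

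The 1 partner that passed was RIMS3 (ENSDARG00000062305), a short member of the RIM family of active zone proteins that binds calcium channel beta subunits. It had 1.26, 0, 0, 0, 4.64 and 3.49 FPKM in injury replicates 1 to 6, against 10.5, 14.9, 23.3, 26.8 and 7.69 FPKM in distal replicates 1 to 5. All injury libraries lay below all distal libraries, as was found for 0.186% of the 24178 genes tested. The difference was -3.03 ± 0.90 (SE, n = 6 and 5; limma p 0.00229; exact two-sided permutation p 0.00433), with a limma adjusted p of 0.838. Over the 24 alternatives it lay between -6.50 and -2.55 with limma p-values of 0.000223 to 0.0110, and it was -2.55 (limma p 0.00594) without the 3 libraries of few genes. No alternative brought its limma adjusted p under 0.600. The myelin gene mbpa was also lower at the injury, and its part in the value of RIMS3 was not tested. The longer RIM genes, which tether P/Q- and N-type channels near vesicles, did not pass an unadjusted limma p of 0.05, and whether RIMS3 differed from them was not tested. RIMS1 had 0 to 29.7 FPKM in injury libraries and 5.39 to 13.8 FPKM in distal ones (limma p 0.542), and rims2a had 8.57 to 72.3 FPKM in injury libraries and 0 to 32.9 FPKM in distal ones (limma p 0.317).

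Of the sodium channel partners, 19 of 21 IDs were tested and 0 passed in either direction at an unadjusted limma p under 0.05, against 2.68% of all genes tested. The highest were the ankyrins ank2b and ANK3, which hold sodium channels in the axonal membrane, and FGF13 (ENSDARG00000056633), an intracellular factor that binds their tail. The ank2b gene had 59.1 to 148 FPKM in injury libraries and 49.3 to 112 FPKM in distal libraries (limma p 0.358). ANK3 had 18.1 to 76.9 FPKM in injury libraries and 18.1 to 62.0 FPKM in distal ones (limma p 0.931). FGF13 had 0 to 35.6 FPKM in injury libraries and 5.92 to 54.9 FPKM in distal libraries (limma p 0.424).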

How the data were processed

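The deposited values are FPKM per gene for 11 libraries, which the authors computed from gene length and mapped fragments. The submitters' processing notes name HISAT2 2.0.5, HTSeq 0.9.1 and the build danRer11, and the study's methods name DESeq with unadjusted p-values. Whether counting used strand is not given in the sources used here, and paralogs may share reads. Symbols were joined on the Ensembl ID for 29201 of 39714 IDs. Library totals and fragments were recovered from the values, with totals within 0.000184 of a whole number and 100% of values whole, which is no check for genes seen in fewer than 3 libraries. On simulated data all 11 totals were right, as were 99.5% of fragment counts of genes above 0 in 3 or more libraries. The simulation took the recovered lengths as true, so it cannot show a length that was recovered too small.

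The 24178 genes whose mean reached 0.1 FPKM were tested on log2(FPKM + 1), injury minus distal, with limma 3.58.1 in R 4.3.3 (lmFit, eBayes with trend; Benjamini-Hochberg over all genes tested), two-sided. This pseudocount understates the change of low genes. Exact permutation tests enumerated all 462 assignments of the group labels (smallest p 0.00216). Both were tested on simulated data. Other steps ran in Python 3.11.15 (pandas 2.3.3, numpy 2.4.6).

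The members and gene lists were chosen with earlier results of these data known. Values per library are given for the highest gene of each class, genes with an unadjusted or exact p under 0.05 and the 3 genes the study displayed. Other genes averaging 1 FPKM or more, or above 0 in 6 or more libraries, get ranges or highest values, because over 30 met this rule. Exceptions are some genes set beside a paralog or chosen after their values were seen. Counts cover all members, but 2 of the 64 are not reported here by value or drawn by gene. Of each partner list, the 3 highest and those with an unadjusted p under 0.05 are named. Alternatives were 2 pseudocounts, 2 filters, 3 scalings, no trend, array weights, a covariate for genes detected, limma voom on recovered fragments, a replicate block, and leaving out 1 or 3 libraries.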

Additional observations from a re-analysis of the deposited data

Results flagged for a closer look

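Groups of 4 to 10 libraries were examined for a highest or lowest library that stands far from the rest, for the channel genes given with values per library, in 25 groups in all. Chance flags about 1 in 20 groups of normally spread values. That rate does not hold for groups with many zeros, so the 2 flags found are not set against it. CACNA1A (ENSDARG00000006923) had 0.0585 FPKM in distal replicate 2, where the other distal libraries had 11.7 to 25.3 FPKM. Taken on log2(FPKM + 1), the gap was 0.773 of the whole range. The paralog cacna1aa had 7.37 FPKM in distal replicate 2, inside the distal range of 6.83 to 13.3 FPKM. CACNG7 (ENSDARG00000063006) was seen in injury replicate 5 alone, at 0.460 FPKM, with 0 FPKM in 5 injury and 5 distal libraries. A gene seen in 1 library of a group has the largest possible gap at any level, so this flag follows from the zeros.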

How the results depend on the processing

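Under 24 alternatives, 11 of which left out 1 library each, the signs of CACNA1C, CACNA1B (ENSDARG00000021735), CACNA1I, CACNA2D2, cacna2d2a, CACNG3, CACNG7 (ENSDARG00000070624), scn1laa, SCN8A (ENSDARG00000005775) and RIMS3 did not turn, over 23 for CACNA1I and scn1laa, which a minimum mean of 1 FPKM left out. The difference of CACNA1A turned to 0.23 with quantile normalization and 0.42 without injury replicates 2 and 3 and distal replicate 2, and ran from -1.0 to 0.48 with 1 library left out. That of cacnb4b turned to 0.43 without the 3 libraries, with -1.61 to -0.57 for 1 left out. With 1 left out, CACNG2 (ENSDARG00000102376) ran from -0.07 to 1.19 and SCN2B from -0.52 to 0.11. The cause was not tested.

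Counts moved as follows. Genes with an adjusted p under 0.05 numbered 0, but 2 without a trend in the variance prior and 3 with voom, and 0 with any 1 library left out. Genes with an unadjusted p under 0.05 numbered 649, 1130 with the covariate for genes detected and 1138 with voom, and 541 to 739 with 1 left out. Of the 649, 24.5% were higher at the injury, against 40.4% with quantile normalization, 43.0% with array weights or voom, 38.6% with the covariate, 52.2% without injury replicate 3 and 65.4% without the 3 libraries. Channel genes with an unadjusted p under 0.05 numbered 1 (cacna2d2a), also 1 but another gene with quantile normalization (CACNA1B, higher, 1.77, p 0.0253), array weights (CACNA1I, higher, 1.28, p 0.0302) or without injury replicate 2 or 3 (CACNA1I, higher), and 2 without a trend (cacna2d2a and CACNA1B), with the covariate or voom (cacna2d2a and CACNA1I) and without the 3 libraries (CACNA1I and CACNG3), 0 with a pseudocount of 0.01, and 0 to 2 with 1 left out. Partner genes numbered 1, 2 without the 3 libraries, and 1 to 2 with 1 left out. The lowest adjusted p of any channel gene was 0.729, with quantile normalization. Channel genes detected numbered 58, 57 without the 3 libraries and 44 at 1 FPKM or more.

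Replicate numbers are shared by the groups. The correlations over genes between same-numbered libraries 1 to 5 were 0.0523, 0.00531, -0.0465, -0.00212 and 0.133. Of the 5 injury libraries, 2 correlated best with their own number. With 5 pairs these values cannot decide whether same-numbered libraries came from the same fish. With the replicate block, 0 genes had an adjusted and 675 an unadjusted p under 0.05, 1 of them a channel gene (cacna2d2a, -2.47), and 1 was a partner. The library with the most fragments, injury replicate 2, had 18 channel genes above 0.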

Other observations

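The presynaptic partners of calcium channels held further pairs that were read as values alone, chosen after they were seen. RIMBP2 (ENSDARG00000001154), which links calcium channels to RIM proteins, was above 0 in all 11 libraries, with 34.6 to 160 FPKM in injury libraries and 27.1 to 90.9 FPKM in distal ones (limma p 0.890). RRAD, a small GTPase that holds back calcium channels, had 0 to 44.6 FPKM in injury libraries, with 0.0581 and 0 FPKM in injury replicates 2 and 3, and 12.3 to 34.6 FPKM in distal libraries (limma p 0.187). Ryanodine receptor genes, the calcium release channels of the endoplasmic reticulum, stayed low. RYR3 did not pass 0.530 FPKM in injury libraries and 0.936 FPKM in distal libraries. The highest values were those of RYR1, 0.626 FPKM in injury replicate 1 (ENSDARG00000023797) and 1.08 FPKM in distal replicate 4 (ENSDARG00000011422). NFASC (ENSDARG00000061099), an adhesion protein of the axon initial segment, was above 0 in all 11 libraries, with 13.1 to 44.2 FPKM in injury libraries and 18.0 to 24.4 FPKM in distal ones (limma p 0.945).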
